A study of Homo sapiens with 6 samples.

Results

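The cytosolic and mitochondrial chaperones were genes whose products fold, hold or refold proteins, mainly in the cytosol and mitochondria, with the J-domain and BAG co-chaperones and the heat shock factors HSF1 and HSF2. The family patterns also took in members that work in the endoplasmic reticulum, DNAJB11, DNAJC1, DNAJC10 and HSPA13 among them. Members were chosen by symbol (the HSP70, HSP110, HSP90, HSP60 and HSP10 genes by name and the HSPB, DNAJA, DNAJB, DNAJC, CCT and BAG families by pattern, without DNAJB9 and DNAJC3) and by a mean of at least 1 CPM (the count per 1000000 counts of a library) over the 6 libraries. Of 57133 symbols in the count table, 94 matched the names and 69 reached that level. All 69 were tested. The member closest above the minimum, CCT6P3, had a mean of 2.22 CPM, and the closest gene below it, DNAJA4, had 0.841 CPM. Of the 25 genes below the minimum, 14 had no count in any library, HSPA1A and HSPA1B among them.

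The libraries were poly(A)-selected RNA-seq of T98G, a human glioblastoma (GBM) cell line, here a CBX8 knockout made with a CRISPR guide (sgCBX8). CBX8 is a chromobox protein of the Polycomb complex PRC1 that binds trimethylated lysine 27 of histone H3. All libraries shared the knockout background, a lentiviral doxycycline-inducible vector with its transactivator, and 1 µg/ml doxycycline for 72 h. The 3 CBX8 KO libraries carried the empty vector and the 3 WT CBX8 re-expression libraries carried wild-type CBX8 with a V5 tag. The genotype label of the re-expression libraries reads "wild type", while their titles and the methods describe re-expression in the knockout line. Every library therefore came from 1 knockout line that had passed drug selection. Re-expressed CBX8 was driven by the vector and not by its own promoter. The empty and CBX8 vectors were carried by separately transduced and selected cells of that line. A difference between these cell populations cannot be told apart from an effect of CBX8. The sources used here do not state whether the 3 libraries of a group were separate cultures, so p-values measure the spread between libraries, which may be technical.

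The libraries held 7950190 to 8659796 counts. CBX8 had 83 to 104 counts in the KO libraries and 27791 to 31408 counts in the re-expression libraries, a log2 fold change of 8.22 (SE 0.08). Of the glial markers examined, VIM and CD44 had means of 2780 and 2700 CPM and EGFR and TNC had 302 and 115 CPM, whereas GFAP had 2.37 CPM, NES had at most 4 counts in a library, and SOX2 and S100B had none. The 10 markers of immune, endothelial, epithelial, neuronal and oligodendroglial cells summed to 64 to 68 counts in a KO library and 89 to 96 counts in a re-expression library, and their part in the results below was not tested. Transcripts encoded by the mitochondrial genome took 6.85 to 7.96% of the counts in KO and 5.96 to 6.99% upon re-expression. In bulk RNA, fewer cells that express a gene and less RNA of it per cell cannot be told apart.

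Chaperones work as a relay. HSP70 proteins bind exposed hydrophobic stretches of a client in a cycle driven by ATP. In this cycle J-domain proteins stimulate ATP hydrolysis and deliver clients, and HSP110 and several BAG proteins release the nucleotide. Clients then pass to HSP90 or to the barrel-shaped chaperonins, TRiC (also called CCT) in the cytosol and HSP60 with its lid HSP10 in mitochondria, and small heat shock proteins hold unfolded proteins without ATP. HSF1 activates many of these genes upon heat and proteotoxic stress by binding heat shock elements, inverted repeats of GAA and TTC units, and tumor cells, glioblastoma among them, commonly express chaperones at high levels.

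The promoters of the chaperones were searched on both strands, in the 250 bases before each RefSeq start site, for a 3-unit heat shock element, that is GAA, TTC and GAA in a row with 2 bases of any kind between neighboring units, or its reverse complement. Of 35116 promoter records of all genes, 155 (0.441%) held it. Of the 69 members, 58 had at least 1 record, 79 records in all, and 5 of the 79 (6.33%) held the element, 1 each for 5 members: DNAJB6, HSP90AA1, HSP90AB1, HSPA8 and HSPD1. Their windows are shown because they hold the letters through which the heat shock factors are known to act on this gene family. Capitals mark the element, each sequence runs 5′ to 3′ on the gene's strand, and coordinates are those of GRCh38.p14.
DNAJB6, chr7:157336853-157336905, plus strand: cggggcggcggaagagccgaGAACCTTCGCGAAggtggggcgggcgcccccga
HSP90AA1, chr14:102087100-102087152, minus strand: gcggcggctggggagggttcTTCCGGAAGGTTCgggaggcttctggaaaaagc
HSP90AB1, chr6:44247758-44247863, plus strand: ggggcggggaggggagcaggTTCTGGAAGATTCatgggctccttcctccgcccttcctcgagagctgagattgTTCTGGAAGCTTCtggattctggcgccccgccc
HSPA8, distal, chr11:123062334-123062386, minus strand: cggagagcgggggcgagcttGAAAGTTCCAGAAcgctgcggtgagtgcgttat
HSPA8, proximal, chr11:123062159-123062211, minus strand: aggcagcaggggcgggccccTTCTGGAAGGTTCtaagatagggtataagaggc
HSPD1, chr2:197500048-197500090, minus strand: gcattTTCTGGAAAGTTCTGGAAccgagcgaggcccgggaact

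HSP90AB1 and HSPA8 each held 2 separate elements, and in HSPD1 an element on each strand overlapped in 1 run of 4 units. That run lay between HSPD1 and HSPE1, which are transcribed away from each other from start sites 538 bases apart, at 228 bases from the HSPD1 start and 294 bases from the HSPE1 start. The HSPE1 record of 250 bases therefore ended before it. The HSPA1A and HSPA1B records held no 3-unit element, but did hold a 2-unit form, a search added after the values were seen. A 2-unit form (GAA and TTC in either order with 2 bases between them) stood in 4067 of 35116 records (11.6%) and in 16 of 79 records of members (20.3%). The 2 HSPA1 windows are shown because these genes are the classical heat-induced HSP70s and had no counts here.
HSPA1A, chr6:31815417-31815516, plus strand: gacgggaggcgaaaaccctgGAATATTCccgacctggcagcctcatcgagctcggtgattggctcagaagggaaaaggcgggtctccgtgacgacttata
HSPA1B, chr6:31827613-31827712, plus strand: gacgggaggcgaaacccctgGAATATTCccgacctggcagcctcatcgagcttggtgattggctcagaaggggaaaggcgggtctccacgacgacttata

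The comparison asked which chaperone genes differed in RNA level between T98G knockout cells with the empty vector and those transduced to express CBX8 again. Upon re-expression 8 members rose and 6 fell in the quasi-likelihood test of edgeR (FDR < 0.05, Benjamini-Hochberg adjustment over all 14461 tested genes). The rises were led by DNAJA3, BAG6, DNAJC6 and HSPA4L, all with few counts, and the falls included 4 mitochondrial chaperones, TRAP1, HSPA9, HSPE1 and HSPD1. Among all tested genes, 12.9% were called, 6.23% higher and 6.63% lower, and among the members 14 of 69 were called (20.3%). The KO and re-expression libraries did not overlap for 27 members, and for 28.9% of all tested genes. The median log2 fold change (re-expression over KO) was -0.01 over the members and 0.00 over all tested genes, with 33 members above 0 and 36 below. At an unadjusted p under 0.05 stood 26 members and 3662 of all tested genes.

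The larger changes were those of genes with few counts. Of the 8 members that rose, 4 changed by more than 1.5-fold, and the highest group mean among these 4 was 14.3 CPM, whereas none of the 6 that fell reached 1.5-fold. Leaving out 1 library lowered the number of members that rose to between 3 and 6 and left 4 or 5 that fell. The number that rose was 4 when CBX8 KO replicate 1 or CBX8 KO replicate 3 was left out, and 3 when this was WT CBX8 re-expression replicate 2. Together the members took 1.52 to 1.59% of counts in KO libraries and 1.54 to 1.62% in re-expression libraries.

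**Figure D1:**
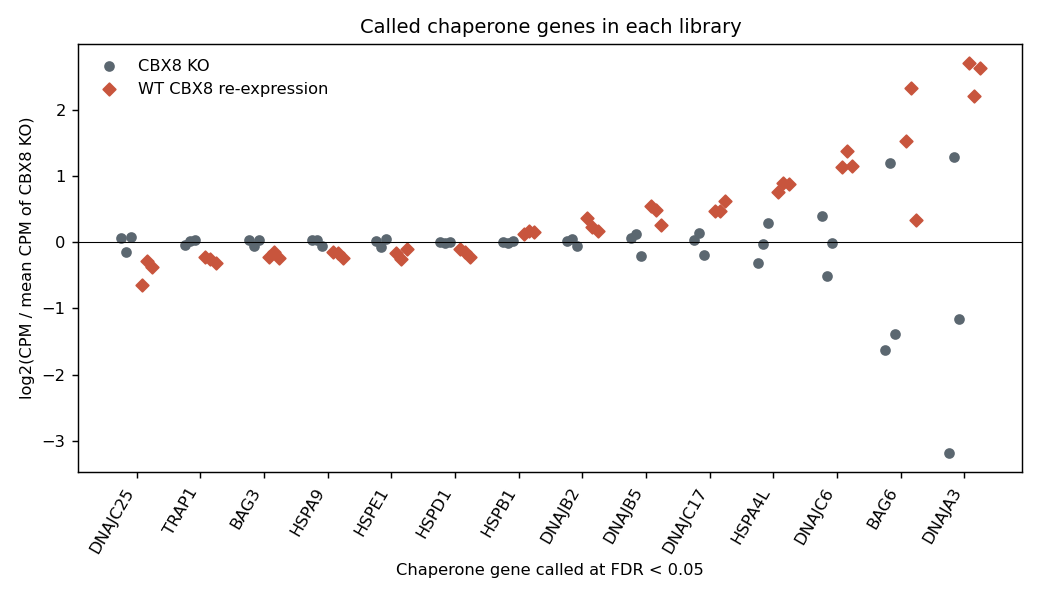
Level of the 14 called chaperone genes in each library, as log2 of CPM over the mean CPM of the CBX8 KO libraries (y axis), by gene (x axis), with grey circles for the 3 CBX8 KO and red diamonds for the 3 WT CBX8 re-expression libraries. The groups overlapped only for BAG6, and BAG6 and DNAJA3 had the widest spreads among their KO libraries.

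**Figure D2:**
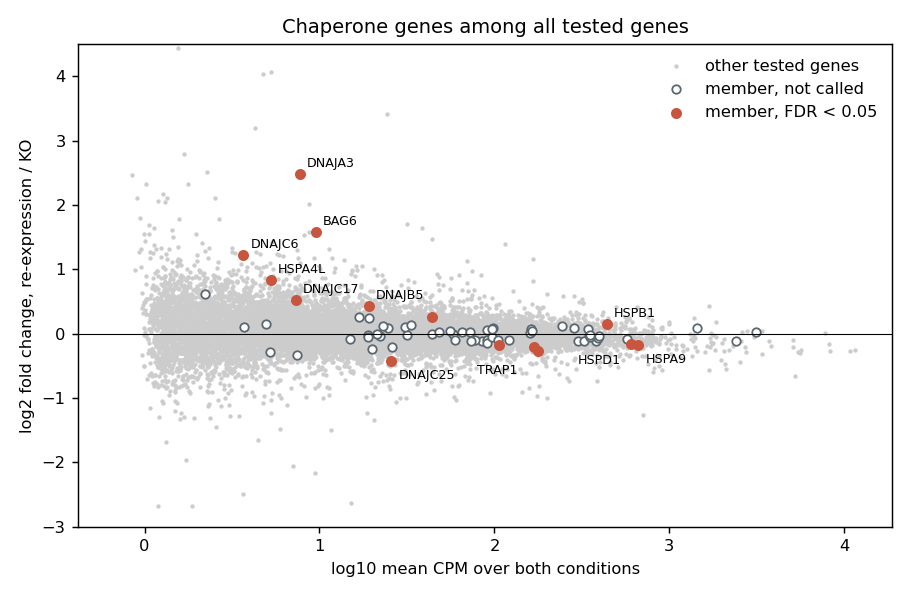
Log2 fold change of re-expression over KO (y axis) against log10 of the mean CPM (x axis) for all tested genes (grey dots) and the members (open circles not called, red circles called at FDR < 0.05); 3 genes that are no members, CBX8 among them, lie outside the plotted range. The members with the largest fold changes, DNAJA3 and BAG6, stand at low CPM, and the abundant members stand close to 0.

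HSF1 and HSF2, the transcription factors of the heat shock response, were not called. HSF1 had 103, 109 and 115 CPM in KO and 104, 101 and 99.9 CPM upon re-expression, a log2 fold change of -0.10 (SE 0.06, adjusted p = 0.27 in edgeR). HSF2 had 19.8, 18.9 and 19.3 CPM in KO and 20.6, 16.9 and 18.5 CPM upon re-expression, a log2 fold change of -0.05 (SE 0.10, adjusted p = 0.81). In both genes the groups overlapped. Neither passed at an unadjusted p under 0.05 in edgeR, and DESeq2 and limma voom called 0 of the 2. With the counts corrected for GC content and length, an alternative added after seeing the data, HSF1 was called, at a log2 fold change of -0.16 (adjusted p = 0.019).

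Of 14 chaperone genes listed as heat-inducible HSF1 targets, 12 were members and were tested, and HSPA1A and HSPA1B had no counts. Of the 12, 2 rose (HSPA4L and HSPB1), 3 fell (BAG3, HSPE1 and HSPD1) and 7 did not pass. That made 41.7% called against 12.9% of all tested genes, in a list chosen with earlier results of these data known. HSPB1, HSPD1 and HSPE1 kept their calls in 8, 7 and 6 of 15 alternative fits. The median log2 fold change of the 12 tested targets was 0.05. Of the 5 members with a 3-unit element printed above, HSPD1 fell and the other 4 did not pass, with log2 fold changes of 0.08 for DNAJB6, 0.08 for HSP90AA1, 0.02 for HSPA8 and -0.12 for HSP90AB1. Of 12 heat shock factor regulators and HSF1 targets that are no members, 9 were tested: SERPINH1, a collagen chaperone, rose by 0.24 on the log2 scale (SE 0.05, adjusted p = 0.0014), UBB, a polyubiquitin gene, rose by 0.18 (SE 0.05, adjusted p = 0.018), and HMOX1, heme oxygenase, fell by 0.46 (SE 0.07, adjusted p = 2.3e-05), all in edgeR. The other 6 did not pass, which made 33.3% called against 12.9% of all tested genes. The median log2 fold change of these 9 was -0.01.

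HSPA8, the constitutive cytosolic HSP70, was the most abundant chaperone RNA per length, at 1370 RPKM (CPM over the length of the canonical transcript in kilobases) in KO and 1400 RPKM upon re-expression. In the KO libraries it stood at 3396, 3087 and 2855 CPM and in the re-expression libraries at 3212, 3213 and 3066 CPM. The re-expression values lay inside the range of the KO values, with a log2 fold change of 0.02 (SE 0.06, adjusted p = 0.85 in edgeR). HSPA13 and HSPA14, less abundant family members at 25.4 and 39.9 RPKM upon re-expression, did not pass, with log2 fold changes of 0.08 and -0.11.

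HSPA9 (mortalin), the HSP70 of the mitochondrial matrix and the motor that pulls precursors through the inner membrane, fell. It lies at chr5:138553756-138575675 in hg38 and had 725, 721 and 678 CPM in KO and 639, 629 and 602 CPM upon re-expression. All 3 re-expression libraries lay below all KO libraries, and the log2 fold change was -0.18 (SE 0.05, adjusted p = 0.012 in edgeR), a fall of 11.9%. Counted within each library, HSPA9 had 22.8 ± 1.3 counts per 100 HSPA8 counts in KO and 19.7 ± 0.17 upon re-expression (SD, n = 3 each). The groups did not overlap. This ratio reuses the HSPA9 counts and was not a planned result, so it gives no separate support. The adjusted p of HSPA9 rose above 0.05 when CBX8 KO replicate 2 (0.075) or WT CBX8 re-expression replicate 3 (0.053) was left out, and was 0.083 with library-size scaling.

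TRAP1, the mitochondrial HSP90, gave the lowest adjusted p of the members that fell. It lies at chr16:3651639-3717553 and had 189, 196 and 198 CPM in KO against 166, 162 and 156 CPM upon re-expression. The groups did not overlap, and the log2 fold change was -0.27 (SE 0.05, adjusted p = 0.00042 in edgeR), a fall of 17.0% that kept its call under all 15 alternative fits. The exons of DNASE1, on the opposite strand, cover 39.0% of the exon bases of TRAP1, and without strand in the counting the reads of the 2 genes cannot be told apart. DNASE1 itself had a log2 fold change of -0.18 (SE 0.06, adjusted p = 0.037 in edgeR).

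The cytosolic HSP90 genes did not pass. HSP90AB1, the constitutive form, had 2510, 2513 and 2478 CPM in KO and 2277, 2387 and 2237 CPM upon re-expression. These values did not overlap, but the log2 fold change of -0.12 (SE 0.05) had an adjusted p of 0.12 in edgeR. DESeq2 and limma voom gave it adjusted p of 0.037 and 0.019. HSP90AA1, the stress-inducible form, had 1456, 1401 and 1309 CPM in KO and 1477, 1500 and 1434 CPM upon re-expression, a log2 fold change of 0.08 (SE 0.05, adjusted p = 0.33 in edgeR) with overlapping groups.

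The ratios of the HSP90 genes within libraries also differed between the groups. HSP90AA1 had 58.0, 55.8 and 52.8 counts per 100 HSP90AB1 counts in KO and 64.9, 62.8 and 64.1 upon re-expression, and TRAP1 had 7.53, 7.81 and 7.99 in KO and 7.30, 6.80 and 6.96 upon re-expression. Neither ratio overlapped between the groups. Ratios of 3 against 3 libraries cannot reach an exact permutation p below 0.1, and these pairs were picked after the values were seen.

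Among 26 co-chaperones of HSP90 and HSP70 outside the members, 0 rose and 1 fell in edgeR, and 5 had an unadjusted p under 0.05. DESeq2 and limma voom each called 1. The gene that fell was TOMM34, a cytosolic co-chaperone of mitochondrial precursors, with 125, 127 and 135 CPM in KO and 106, 106 and 95.4 CPM upon re-expression, a log2 fold change of -0.33 (SE 0.06, adjusted p = 0.00013 in edgeR). The others ranged up to 0.18, with STIP1, which links HSP70 to HSP90, at 0.09 (adjusted p = 0.27), the HSP90 activator AHSA1 at 0.10 (adjusted p = 0.34) and the kinase co-chaperone CDC37 at -0.04 (adjusted p = 0.67).

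Both mitochondrial chaperonin genes fell. HSPD1, which encodes HSP60, had 641, 636 and 644 CPM in KO and 594, 580 and 546 CPM upon re-expression. HSPE1, which encodes HSP10, had 113, 107 and 116 CPM in KO and 99.8, 94.1 and 104 CPM upon re-expression. In both genes every re-expression library lay below every KO library. The log2 fold change was -0.16 for HSPD1 (SE 0.05, adjusted p = 0.028 in edgeR) and -0.18 for HSPE1 (SE 0.06, adjusted p = 0.037).

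The ratio of the 2 chaperonin RNAs was 17.5 ± 0.62 HSPE1 counts per 100 HSPD1 counts in KO and 17.3 ± 1.5 upon re-expression (SD, n = 3 each), with overlapping groups. Per length they stood at 285 and 201 RPKM in KO and at 255 and 178 RPKM upon re-expression, HSPD1 first. HSPD1 had an adjusted p of 0.056 to 0.12 without CBX8 KO replicate 1, 2 or 3 or without WT CBX8 re-expression replicate 2 or 3. HSPE1 had 0.067 to 0.23 without CBX8 KO replicate 1 or 3 or without WT CBX8 re-expression replicate 1 or 2. With the replicate number as a block the adjusted p were 0.068 for HSPD1 and 0.057 for HSPE1, with library-size scaling 0.17 for each, and with a correction for GC content and length, added after seeing the data, 0.073 and 0.17. HSPE1 also lost its call in DESeq2 (adjusted p = 0.12) and with upper-quartile scaling (adjusted p = 0.056), and kept it in 6 of 15 alternative fits, against 7 of 15 for HSPD1.

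The uniqueness of the HSPD1 and HSPE1 counts is limited. Of the 100-base windows of HSPD1 exons, 20.3% have an exact copy elsewhere in hg38, against 0.481% for HSPE1, and 34.5% of HSPE1 exon bases are shared with the readthrough gene HSPE1-MOB4, which had no counts. The 17 HSPD1 pseudogenes in the table together held 155 to 205 counts per library, 3.62% of the HSPD1 count, and the 26 HSPE1 pseudogenes held 16 to 30 counts, 2.76% of the HSPE1 count.

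Grouped after the values were seen, the 9 members known to work in or at mitochondria (HSPA9, TRAP1, HSPD1, HSPE1, DNAJA3, DNAJC11, DNAJC15, DNAJC19 and DNAJC30) had 8 log2 fold changes below 0 and 1 above, with a median of -0.16 against 0.00 for all tested genes. The 4 named above fell, DNAJA3 rose, and the other 4 did not pass, which made 55.6% called against 12.9% of all tested genes. Of all 14461 tested genes, 7064 lay below 0. HSPD1 and HSPE1 kept their calls in 7 and 6 of 15 alternative fits, and the counts of DNAJA3 are uncertain, as described below. DNAJC19, a J-domain protein of the import motor, had a log2 fold change of -0.21 (adjusted p = 0.18), and DNAJC11, an outer-membrane J-domain protein, had -0.15 (adjusted p = 0.082). The exons of THAP3, on the opposite strand, cover 44.3% of the exon bases of DNAJC11. THAP3 itself had a log2 fold change of -0.02 (adjusted p = 0.91 in edgeR). The share of counts from the mitochondrial genome was also at the lower end in re-expression libraries, with overlapping ranges given above, and its part in these values was not tested.

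Outside the members, 16 genes of mitochondrial import and proteostasis had a median of -0.08. Of these, 11 lay below 0, against 7064 of all 14461 tested genes. TOMM20, a receptor of the outer-membrane import pore, fell, with 383, 383 and 371 CPM in KO and 315, 308 and 301 CPM upon re-expression, a log2 fold change of -0.30 (SE 0.05, adjusted p = 5.2e-05 in edgeR). SPG7, a subunit of the inner-membrane AAA protease, rose, from 86.3, 87.1 and 92.9 CPM to 103, 103 and 102 CPM, a log2 fold change of 0.21 (SE 0.05, adjusted p = 0.01). The other 14 did not pass, which made 12.5% called, near the 12.9% of all tested genes. GRPEL1, the nucleotide exchange factor of HSPA9, had -0.14 (adjusted p = 0.15), and the matrix protease LONP1 had -0.14 (adjusted p = 0.17).

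None of the 8 TRiC subunit genes was called in edgeR, DESeq2 or limma voom. An unadjusted p under 0.05 in edgeR was reached by 3 of them, and by 3662 of all 14461 tested genes. All 8 had log2 fold changes below 0, from -0.12 for CCT2 to -0.03 for CCT3, with a median of -0.07. TCP1, which encodes the alpha subunit, had 337, 332 and 346 CPM in KO and 312, 316 and 312 CPM upon re-expression. Its groups did not overlap, and its log2 fold change was -0.11 (SE 0.05, adjusted p = 0.12 in edgeR). CCT2 and CCT6A likewise had no overlap, at -0.12 (adjusted p = 0.10) and -0.11 (adjusted p = 0.15). Of all 14461 tested genes, 28.9% had no overlap and 7064 lay below 0.

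The exons of ACAT2, on the opposite strand, cover 19.3% of the exon bases of TCP1. ACAT2 fell by 0.31 on the log2 scale (SE 0.06, adjusted p = 0.00098 in edgeR). Genes on the opposite strand also cover 52.7% of the exon bases of CCT5, 19.2% of CCT4 and 4.58% of CCT8. The subunits lay between 144 and 216 RPKM in KO. With library-size scaling alone, which raises the median of all genes from 0.00 to 0.06, TCP1 stayed below 0 at -0.06. TCP1 was the only subunit read under this scaling, so whether all 8 stayed below 0 was not tested. Under it, HSPA4 went from -0.0431 to 0.0125 and HSF2 from -0.0535 to 0.0023. CCT3 and CCT7, at -0.03 each with TMM scaling, lay nearer to 0 than either, so the shared sign of the 8 may depend on the scaling. The 3 CCT pseudogenes among the members had 12 to 51 counts in a library, CCT6P1 with a log2 fold change of -0.29 (adjusted p = 0.40), CCT8P1 with 0.10 (adjusted p = 0.84) and CCT6P3 with 0.62 (adjusted p = 0.18). Of the exon windows of CCT6P3, 58.3% have exact copies elsewhere. Of 9 prefoldin genes and other TRiC helpers 8 were tested and 0 were called in edgeR, DESeq2 or limma voom, and 0 had an unadjusted p under 0.05 in edgeR, with log2 fold changes from -0.10 to 0.14.

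**Figure D3:**
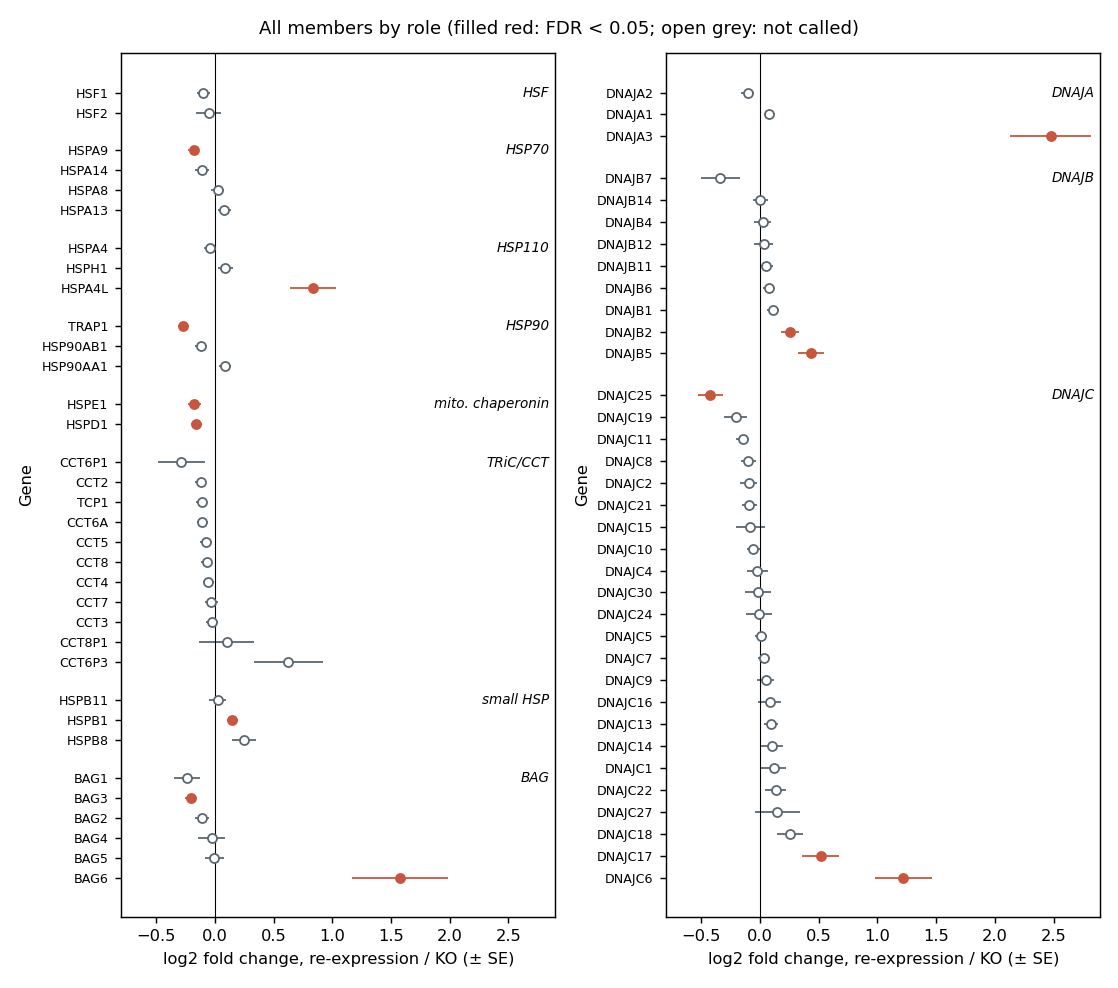
Log2 fold change of re-expression over KO with its standard error (x axis) for all 69 members by role (y axis), filled red where FDR < 0.05 and open grey otherwise. The 8 TRiC subunits lie between -0.12 and -0.03, whereas DNAJA3 (2.47), BAG6 (1.58), DNAJC6 (1.22) and HSPA4L (0.84) lie apart at the right.

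Of the 3 HSP110-type exchange factors, which release ADP from HSP70, HSPA4L rose. It had 24, 31 and 36 counts in KO and 54, 61 and 58 counts upon re-expression (3.03, 3.68 and 4.61 against 6.35, 6.97 and 6.91 CPM). The groups did not overlap, and the log2 fold change was 0.84 (SE 0.20, adjusted p = 0.0044 in edgeR), kept under all 15 alternative fits. It lies at chr4:127781821-127840733, and 5.05% of its exon bases are covered by a gene on the opposite strand.

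HSPA4L was the scarce member of the group, at 0.356 RPKM in KO against 73.5 RPKM for HSPA4 and 52.5 RPKM for HSPH1. HSPA4 had a log2 fold change of -0.04 (adjusted p = 0.63) and HSPH1 one of 0.09 (adjusted p = 0.41). HSPH1 varied in KO, with 306, 281 and 239 CPM, and the re-expression libraries at 295, 301 and 282 CPM lay within that range.

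HSPB1 (HSP27), the most abundant small heat shock protein RNA at 535 RPKM in KO and 593 RPKM upon re-expression, rose by 10.7%. It lies at chr7:76302673-76304295 and had 415, 411 and 422 CPM in KO and 452, 465 and 465 CPM upon re-expression. The groups did not overlap, with a log2 fold change of 0.15 (SE 0.05, adjusted p = 0.035 in edgeR). HSPB8, a partner of BAG3, had 17.5, 18.9 and 15.9 CPM in KO and 19.5, 22.4 and 20.2 CPM upon re-expression, also without overlap, but its log2 fold change of 0.25 (SE 0.11) had an adjusted p of 0.14. HSPB11 had a log2 fold change of 0.02 (adjusted p = 0.88).

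HSPB1 lost its call without CBX8 KO replicate 1 or 2 or WT CBX8 re-expression replicate 2 or 3, at adjusted p of 0.073 to 0.15, without a filter on low counts at 0.079, with the replicate number as a block at 0.086, and at 0.19 after a correction for GC content and length that brought its log2 fold change to 0.10. Of its exon windows, 7.96% have an exact copy elsewhere. Within libraries, HSPB1 had 64.7, 64.6 and 65.6 counts per 100 HSPD1 counts in KO and 76.0, 80.2 and 85.0 upon re-expression, a ratio with no overlap that was picked after the values were seen, and HSPD1 itself fell. Against HSPA8, HSPB1 had 13.4 ± 1.3 counts per 100 in KO and 14.6 ± 0.56 upon re-expression (SD, n = 3 each), with overlapping groups.

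Among the BAG proteins, several of which couple HSP70 to release of clients or to degradation, BAG3 fell and BAG6 rose. BAG3, the stress-induced member that directs clients to autophagy, lies at chr10:119651380-119677819 and had 182, 173 and 182 CPM in KO and 153, 161 and 151 CPM upon re-expression. The groups did not overlap, and the log2 fold change of -0.20 (SE 0.05, adjusted p = 0.0067 in edgeR) was called under all 15 alternative fits. BAG1, a nucleotide exchange factor, had a log2 fold change of -0.24 (SE 0.11, adjusted p = 0.18) with overlapping groups, and BAG2, BAG4 and BAG5 had -0.11, -0.03 and -0.01.

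BAG6, which shields hydrophobic tail-anchored proteins in the cytosol, had 12, 91 and 14 counts in KO and 115, 206 and 50 counts upon re-expression. The 2 groups overlapped, since KO replicate 2 had more counts than re-expression replicate 3. The log2 fold change was 1.58 (SE 0.41, adjusted p = 0.0096 in edgeR), and it ranged from 1.02 to 3.11 over the alternative fits. Its adjusted p was 0.11 without CBX8 KO replicate 1, 0.061 without CBX8 KO replicate 3, 0.15 without WT CBX8 re-expression replicate 2 and 0.44 in DESeq2.

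BAG6 and DNAJA3 were the 2 members for which every 100-base exon window has an exact second copy in the hg38 sequence, on 6 alternate contigs for BAG6 and 1 for DNAJA3. The same held for HSPA1A, HSPA1B and DNAJC28, which are no members and had 0 counts in all 6 libraries. HSPA1A and HSPA1B are near-identical neighbors on chromosome 6, and 72.4% and 68.9% of their windows also occur a second time within the primary assembly. How the counting treated reads with more than 1 placement is not given in the sources used here, so the counts of these 5 genes are uncertain, and an absent count does not show absent RNA. Without BAG6 and DNAJA3, 6 of 67 members rose and 6 fell (17.9% called), a count added after the values were seen.

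**Figure D4:**
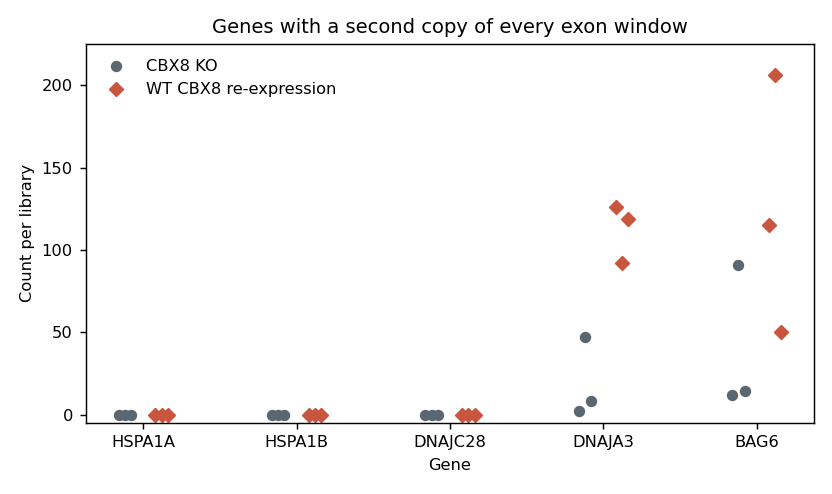
Count per library (y axis) of the 5 chaperone genes whose exon windows all have a second copy in hg38 (x axis), with grey circles for CBX8 KO and red diamonds for WT CBX8 re-expression. HSPA1A, HSPA1B and DNAJC28 stand at 0 in all libraries, DNAJA3 separates the groups (2, 8 and 47 against 92, 119 and 126) and BAG6 does not.

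The J-domain proteins were the largest class, with 35 members, of which 5 rose, 1 fell and 29 did not pass in edgeR (17.1% called, against 12.9% of all tested genes), and DESeq2 called 3. Their median log2 fold change was 0.03. In the DNAJA class, DNAJA3 (Tid1), the mitochondrial partner of HSPA9, had the largest rise of any member. It lies at chr16:4425805-4456775 and had 2, 47 and 8 counts in KO and 126, 92 and 119 counts upon re-expression. The groups did not overlap, and the log2 fold change was 2.47 (SE 0.34, adjusted p = 1e-05 in edgeR), but the KO libraries ran from 0.252 to 5.58 CPM among themselves. Without CBX8 KO replicate 2 the log2 fold change was 4.34, and in DESeq2 the adjusted p was 0.15.

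The abundant cytosolic partners of HSPA8 did not pass. DNAJA1 had 346, 324 and 324 CPM in KO and 350, 362 and 338 CPM upon re-expression, a log2 fold change of 0.08 (adjusted p = 0.34), and DNAJA2 had a log2 fold change of -0.11 (adjusted p = 0.23). DNAJB1 (HSP40), the heat-inducible partner, had 241, 229 and 228 CPM in KO and 261, 252 and 241 CPM upon re-expression. These groups overlapped slightly, with a log2 fold change of 0.11 (SE 0.05, adjusted p = 0.15).

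DNAJB5 and DNAJB2 rose. DNAJB5, a relative of DNAJB1 at chr9:34989641-34998900, had 17.0, 17.7 and 14.1 CPM in KO and 23.7, 22.9 and 19.4 CPM upon re-expression, a log2 fold change of 0.43 (SE 0.11, adjusted p = 0.0097 in edgeR). DNAJB2, which directs ubiquitylated clients to the proteasome and is best known from neurons, lies at chr2:219279342-219286898 and had 40.5, 41.5 and 38.7 CPM in KO and 51.8, 47.2 and 45.0 CPM upon re-expression. Its log2 fold change was 0.26 (SE 0.08, adjusted p = 0.027). Neither gene overlapped between the groups.

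The calls of both genes were lost when certain libraries were left out. DNAJB5 had adjusted p of 0.067, 0.05 and 0.055 without CBX8 KO replicate 3, WT CBX8 re-expression replicate 1 or WT CBX8 re-expression replicate 2, and DNAJB2 had 0.054 to 0.16 without any of the libraries but WT CBX8 re-expression replicate 3. DNAJB2 also lost its call in DESeq2 (adjusted p = 0.10) and with the correction for GC content and length (log2 fold change 0.20, adjusted p = 0.076). DNAJB7 had the lowest value of the class, a log2 fold change of -0.34 (SE 0.16, adjusted p = 0.19), from 61 to 77 counts in KO and 48 to 64 counts upon re-expression. The other 5 DNAJB members (DNAJB4, DNAJB6, DNAJB11, DNAJB12 and DNAJB14) lay between 0.00 and 0.08.

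In the DNAJC class, DNAJC6 and DNAJC17 rose and DNAJC25 fell, and 20 members did not pass. That made 13% called, near the 12.9% of all tested genes. DNAJC6 (auxilin), which recruits HSPA8 to strip clathrin from coated vesicles and is known from neurons, had 23, 13 and 17 counts in KO and 41, 50 and 41 counts upon re-expression. The groups did not overlap, and the log2 fold change was 1.22 (SE 0.24, adjusted p = 0.00098 in edgeR), kept under all 15 alternative fits. It lies at chr1:65248219-65415871 and stood at 0.370 RPKM in KO and 0.862 RPKM upon re-expression, among the lowest levels of the members.

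DNAJC17, a nuclear J-domain protein, had 49, 56 and 41 counts in KO and 71, 73 and 78 counts upon re-expression, with no overlap and a log2 fold change of 0.52 (SE 0.16, adjusted p = 0.029 in edgeR). Genes on the opposite strand cover 33.7% of its exon bases, and its adjusted p was 0.062 to 0.12 without CBX8 KO replicate 1 or 3 or WT CBX8 re-expression replicate 2 or 3, and 0.16 in DESeq2. DNAJC25, a J-domain protein with transmembrane segments at chr9:111631334-111654351, had 30.9, 26.5 and 31.1 CPM in KO and 18.9, 24.1 and 22.9 CPM upon re-expression. It had the lowest log2 fold change of all members, -0.42 (SE 0.10, adjusted p = 0.0063 in edgeR), a fall of 25.4% without overlap that kept its call under all 15 alternative fits. It shares 15.7% of its exon bases with the readthrough gene DNAJC25-GNG10, which had no counts.

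**Figure D5:**
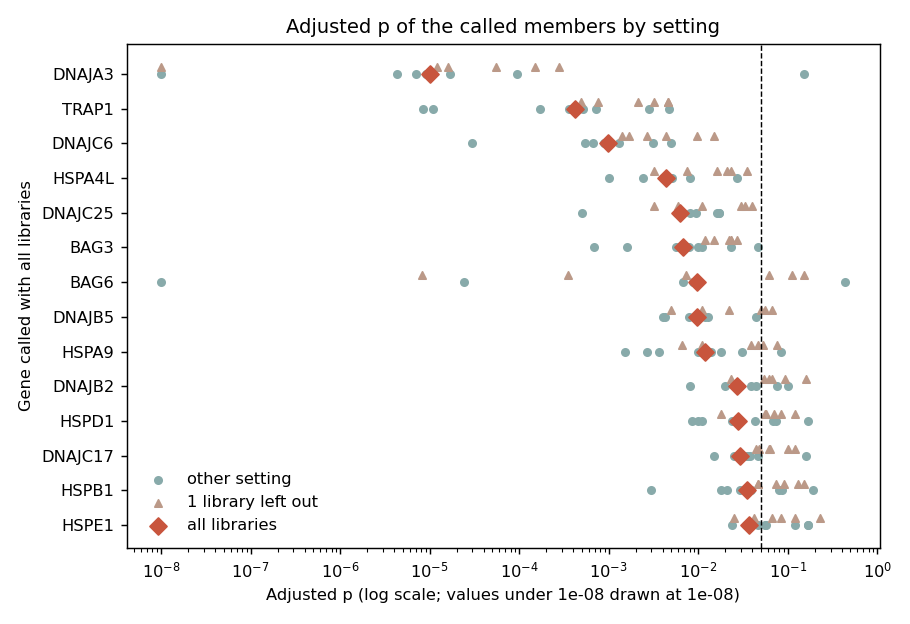
Adjusted p (x axis, log scale) of the 14 called members (y axis) with all libraries (red diamonds), with 1 library left out (triangles) and under other settings (circles), with the dashed line at 0.05 and the smallest values drawn at the left edge. TRAP1, DNAJC6, HSPA4L, DNAJC25 and BAG3 stay left of the line in every fit, and the other 9 cross it in at least 1.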

How the data were processed

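RNA was poly(A)-selected from 3 CBX8 KO and 3 WT CBX8 re-expression libraries of T98G cells and sequenced as 100-base read pairs. After FastQC and adapter trimming by Trimmomatic, the authors used HISAT2 for alignment to hg38 (the submitters' processing notes name these 2 tools and the build), and deposited raw counts per gene symbol. The counting program, annotation, strand setting and treatment of reads with several placements are not given in the sources used here.

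The counts were tested with edgeR 4.0.16 in R 4.3.3 (filterByExpr at its defaults, TMM scaling, quasi-likelihood test, condition as the only term), with Benjamini-Hochberg adjustment over all 14461 tested genes and FDR < 0.05 as the call. Standard errors are the absolute log2 fold change over the square root of F. CPM in the text are TMM-scaled, except the mean CPM of at least 1 that defines a member, which uses plain library totals. DESeq2 1.42.0, limma 3.58.1 (voom), other scalings, filters, thresholds, a replicate block and the omission of each library were alternatives. The edgeR script was tested on simulated data. The biological coefficient of variation was 4.7%, and all replicate pairs differed by more than sampling noise (chi-square per degree of freedom 1.96 to 2.9), so the spread between libraries exceeds counting error.

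The replicate numbers were checked for pairing: deviations from the group means of libraries with the same number correlated at -0.141, -0.0863 and -0.067 over 12018 genes, so the numbers were not taken to pair libraries. Coordinates, exon overlaps and lengths come from GENCODE 44 on hg38 (36501 symbols matched by name and 905 by a RefSeq synonym, including all 94 that matched the member names). Copies are exact matches of 100-base exon windows in hg38. Promoter sequences are RefSeq records. Members and gene lists were chosen with earlier results of these data known. Genes named in the text were CBX8, 17 fixed chaperones, every called member, the lowest and highest fold change of each role group and the genes next to the CPM minimum, and other genes were named from the lists as examples after their values were seen.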

Additional observations from a re-analysis of the deposited data

How the results depend on the processing

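The counts of members that rose and fell were 8 and 6, with a median log2 fold change of -0.0088. Library-size scaling gave 3 that fell and a median of 0.0462, while the median of all genes went to 0.0602. DESeq2 gave 4 that rose. FDR < 0.01 gave 5 and 3, and a minimum of 1.5-fold gave 4 and 0. Leaving out 1 library gave 3 to 6 that rose, 4 to 5 that fell and medians of -0.0362 to 0.0105. The sign of the median also changed with upper-quartile scaling (0.0039) and a correction for GC content and length (0.0069), the latter added after seeing the data. The cause of these changes was not tested, apart from the stricter thresholds. The other settings kept both counts within 1.5 times.

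With the replicate number as a block, 7 rose and 4 fell, and the calls of HSPB1, HSPD1 and HSPE1 were lost. Of 480 fits of named genes, 422 kept direction and call, 47 lost a call, 4 gained one and 7 changed sign, none of these in a called gene. The changes of sign were HSF2 (0.0023) and HSPA4 (0.0125) with library-size scaling, HSPA8, HSPB11 and HSPH1 without CBX8 KO replicate 3, HSF2 without WT CBX8 re-expression replicate 2 and HSPB11 without WT CBX8 re-expression replicate 3. With 1 library left out, values ran from -0.0362 to 0.0888 for HSPA8, -0.0506 to 0.0941 for HSPB11, -0.0032 to 0.1684 for HSPH1 and -0.1324 to 0.0134 for HSF2. Calls gained were HSP90AB1 in DESeq2 and limma voom, DNAJB1 with library-size scaling (adjusted p = 0.024 in edgeR) and HSF1 with the GC correction (adjusted p = 0.019). HSPA9 lost its call with library-size scaling (adjusted p = 0.083). BAG6, DNAJA3, DNAJC6, DNAJC17, HSPA4L and DNAJB5 had at most 206 counts in a library, and an effect of depth on their calls was not tested.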

Other observations

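A list of 15 chaperones of the endoplasmic reticulum outside the members gave 1 gene that rose and 1 that fell, with a median log2 fold change of -0.00. That made 13.3% called, near the 12.9% of all tested genes, of which 28.9% had no overlap between the groups. SERPINH1, already described above among HSF1 targets, rose, with 261, 288 and 276 CPM in KO and 334, 320 and 319 CPM upon re-expression, and its groups did not overlap. CANX, the calnexin of the glycoprotein folding cycle, fell from 1932, 1888 and 1785 CPM to 1647, 1715 and 1682 CPM, without overlap, a log2 fold change of -0.15 (SE 0.05, adjusted p = 0.043 in edgeR). HSPA5 (BiP), the HSP70 of the endoplasmic reticulum, had a log2 fold change of -0.06 (adjusted p = 0.53) and HSP90B1 (GRP94), its HSP90, had -0.09 (adjusted p = 0.30). DNAJB9, a J-domain partner of HSPA5, had the highest value of the list at 0.38 with an adjusted p of 0.059.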
